A study of Mus musculus with 4 samples.

Results

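The 7 genes described here are Bok, Cpne4, Iyd, Socs2, Pvrl3, Amigo2 and Rgs14, which mark pyramidal neurons of the CA3 and CA2 fields of the hippocampus. They were taken by name from a list of cell type markers, 5 for CA3 (Bok, Cpne4, Iyd, Socs2 and Pvrl3) and 2 for CA2 (Amigo2 and Rgs14), among 23466 gene symbols in the deposited table. RNA was measured in frozen hippocampus at postnatal day 30, in 2 mutant and 2 wild-type C57BL/6N samples. The mutants, 38 and 39, are given as Atp6ap2Camk2aCre/0 with the words conditional het, and the wild-types, 11 and 73, as wt. Camk2a-Cre is a recombinase driven by a promoter of forebrain excitatory neurons. The labels do not say in which hippocampal fields it acted, or whether the wild-types carried an unrecombined allele. Atp6ap2, the prorenin receptor and an accessory subunit of the vacuolar proton pump, had 2551 and 2522 scaled read equivalents in mutants 38 and 39, against 2312 and 2637 in wild-types 11 and 73 (log2 fold change 0.04 ± 0.10 SE, limma adjusted p = 0.991), so the whole-transcript signal of the targeted gene does not mark the mutant libraries.

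Dentate granule cells send mossy fibres to the CA3 pyramidal neurons, which are joined to each other by recurrent excitatory synapses and project on to CA1. The small CA2 field lies between CA3 and CA1, is set apart by its own genes, and is known in mice for its part in social memory and for synapses that resist long-term potentiation. Each field has a set of genes that label its neurons more strongly than those of its neighbours, although such genes are also read elsewhere in the brain and in other cells.

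Values are scaled read equivalents, which are the deposited aligned bases of a transcript, already scaled between libraries, divided by the length of 1 read. All 7 genes had signal in every library, from 54 unscaled read equivalents for Iyd in wild-type 73 to 2332 for Cpne4 in mutant 38. The libraries held between 10023033 (wild-type 73) and 18339838 (wild-type 11) unscaled read equivalents over genes. Libraries from either group stood apart by choroid plexus RNA: the 16 markers of that tissue summed to 83522 in mutant 38 and 2946 in mutant 39, against 49898 in wild-type 11 and 3811 in wild-type 73. Nothing in the labels ties a library to a separate animal, so a p-value here reflects only how far these samples spread, which may be technical.

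None of the 7 genes differed between mutant and wild-type beyond the spread of the libraries. With limma, 0 of 7 had an adjusted p below 0.05 (0.00552% of all 18127 genes tested), and 0 of 7 had an unadjusted p below 0.05 (3.94% of all genes tested). In 0 of 7 did both mutants lie beyond both wild-types, against 33.3% of all genes tested. The fitted value was above 0 for 5 genes and below 0 for 2. Their median log2 fold change was 0.05, beside 0.0067 over all genes tested. The 95% intervals of the 7 differences lay within 0.618-fold, the lower end for Iyd, and 1.43-fold, the upper end for Amigo2 and Rgs14. Differences within the intervals could not be told from none with 2 libraries a group. In whole tissue, fewer cells of a type and less RNA per cell cannot be told apart.

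**Figure D1:**
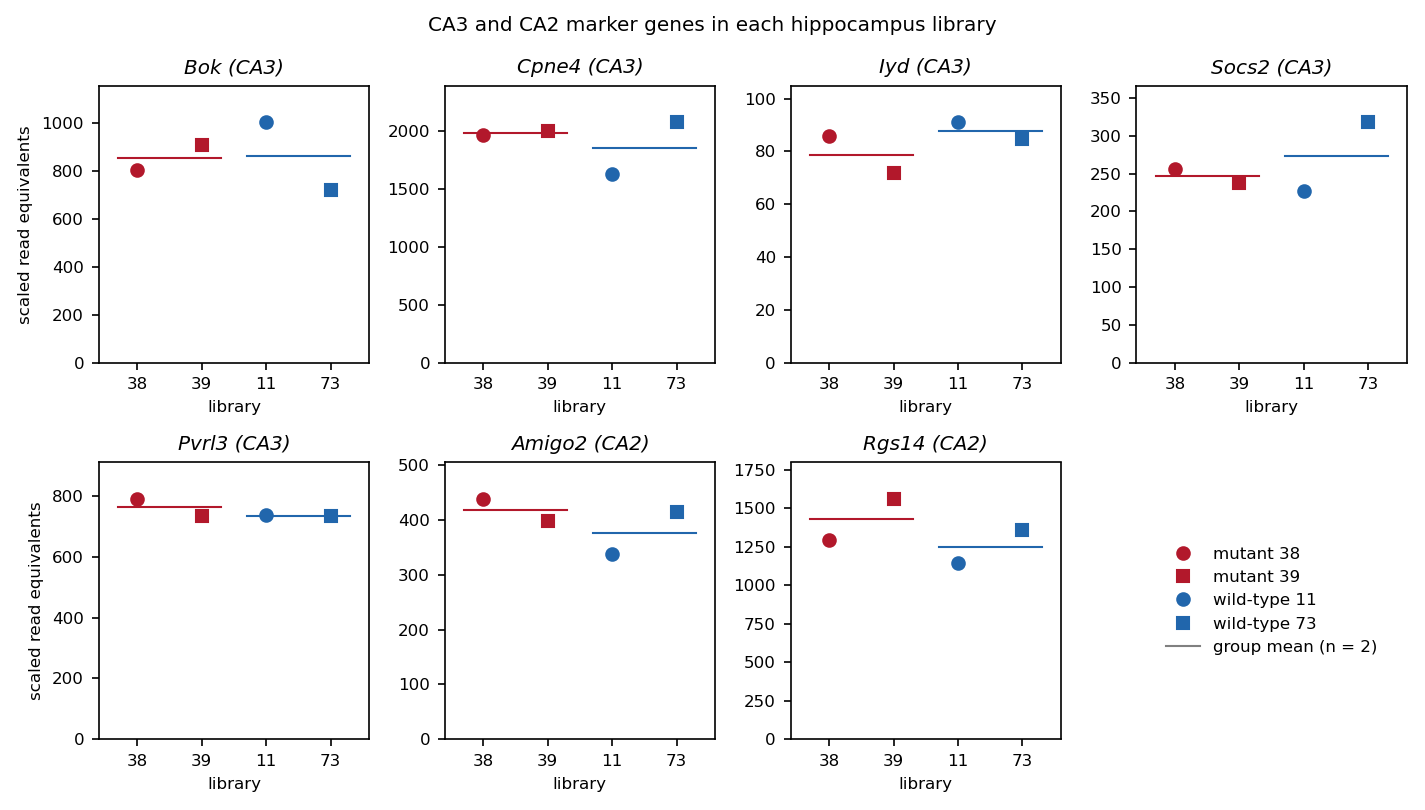
Scaled read equivalents (vertical axes, from 0) of the 5 CA3 and 2 CA2 marker genes in mutants 38 and 39 and wild-types 11 and 73; lines are group means of 2 libraries. In every panel the range of the mutants overlaps that of the wild-types, from Pvrl3 (733 to 792 over all 4 libraries) to Socs2 (228 to 318).

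Among the CA3 genes, Cpne4 encodes a copine, a protein that binds membrane phospholipids in the presence of calcium. It had 1969 and 2007 scaled read equivalents in mutants 38 and 39, against 1635 and 2080 in wild-types 11 and 73. Both mutants lay between the wild-types, which differed from each other by 1.27-fold while the mutants differed by 1.02-fold. The log2 fold change was 0.11 ± 0.13 (SE from 2 libraries a group, with a 95% interval of -0.20 to 0.42 and an adjusted p of 0.989 by limma).

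Pvrl3 encodes nectin-3, an immunoglobulin-type adhesion molecule that pairs with nectin-1 at contacts between mossy fibre terminals and CA3 dendrites. Its level was 792 and 733 scaled read equivalents in mutants 38 and 39, against 737 and 735 in wild-types 11 and 73. The wild-types were nearly the same, and mutants lay on both sides of them. Pvrl3 had the narrowest 95% interval of the 7, with a log2 fold change of 0.05 ± 0.11 (SE from 2 libraries a group; -0.20 to 0.30; adjusted p = 0.989 by limma). The gene has 3 transcript records, which may share reads. NM_021495 stands for it above, and NM_021496 had 377 and 383 scaled read equivalents in mutants 38 and 39, against 358 and 423 in wild-types 11 and 73. For NM_021497 the values were 372 and 376 in mutants 38 and 39, against 346 and 412 in wild-types 11 and 73. In the records NM_021496 and NM_021497 both mutants lay between the wild-types, so all 3 records overlapped between the groups.

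Bok encodes a BCL2-family protein related to the death effectors BAX and BAK. It had 803 and 909 scaled read equivalents in mutants 38 and 39, against 1004 and 722 in wild-types 11 and 73. Wild-type 11 was the highest library and wild-type 73 the lowest, 1.39-fold apart, with both mutants between them. The group means of Bok were 856 in mutant and 863 in wild-type, and the fitted log2 difference was 0.0049 ± 0.17 (SE from 2 libraries a group, with a 95% interval of -0.40 to 0.41 and an adjusted p of 0.998 by limma).

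Socs2, a feedback suppressor of cytokine and growth hormone signalling, had the reverse order in the wild-types. Its level was 257 and 238 scaled read equivalents in mutants 38 and 39, against 228 and 318 in wild-types 11 and 73. The mutants again lay between the wild-types, which were 1.40-fold apart, the widest gap within a group among the 7 genes. Its log2 fold change was -0.12 ± 0.19 (SE from 2 libraries a group, with a 95% interval of -0.58 to 0.33 and an adjusted p of 0.989 by limma). The 4 transcript records of Socs2 had similar values, may share most of their reads, and overlapped between the groups in each case.

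Iyd encodes iodotyrosine deiodinase, the enzyme that recovers iodide from iodinated tyrosines in the thyroid. It was the least abundant of the 7, with 85.9 and 71.8 scaled read equivalents in mutants 38 and 39, against 91.1 and 84.7 in wild-types 11 and 73. Mutant 39 was the lowest library and wild-type 11 the highest, and mutant 38 lay between the wild-types. These values rest on 102, 79, 109 and 54 unscaled read equivalents in mutants 38 and 39 and wild-types 11 and 73, and Iyd had the widest interval of the 7. Its log2 fold change was -0.16 ± 0.23 (SE from 2 libraries a group, with a 95% interval of -0.70 to 0.37 and an adjusted p of 0.989 by limma).

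The CA2 genes had the largest fitted values of the 7 above 0, and neither passed. Rgs14 encodes a scaffold that speeds the shut-off of inhibitory G proteins, binds Ras-family proteins and is known in mice to limit long-term potentiation in CA2. It had 1290 and 1561 scaled read equivalents in mutants 38 and 39, against 1140 and 1359 in wild-types 11 and 73. Mutant 39 was the highest and wild-type 11 the lowest library, while mutant 38 was below wild-type 73. The means were 1426 ± 192 in mutant and 1249 ± 155 in wild-type (SD, n = 2 each), and the log2 fold change 0.19 ± 0.14 (SE, with a 95% interval of -0.14 to 0.52; unadjusted p = 0.211 and adjusted p = 0.989, limma).

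Amigo2 encodes a leucine-rich repeat and immunoglobulin-type adhesion protein of the neuronal membrane. Its level was 439 and 398 scaled read equivalents in mutants 38 and 39, against 337 and 416 in wild-types 11 and 73. Mutant 38 was the highest library and wild-type 11 the lowest, and wild-type 73 lay between the mutants. The log2 fold change was 0.16 ± 0.15 (SE from 2 libraries a group, with a 95% interval of -0.20 to 0.52 and an adjusted p of 0.989 by limma), and all 3 transcript records overlapped between the groups. In the authors' deposited table the p-values of the 7 representative records ran from 0.245 for Rgs14 to 0.904 for Bok.

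**Figure D2:**
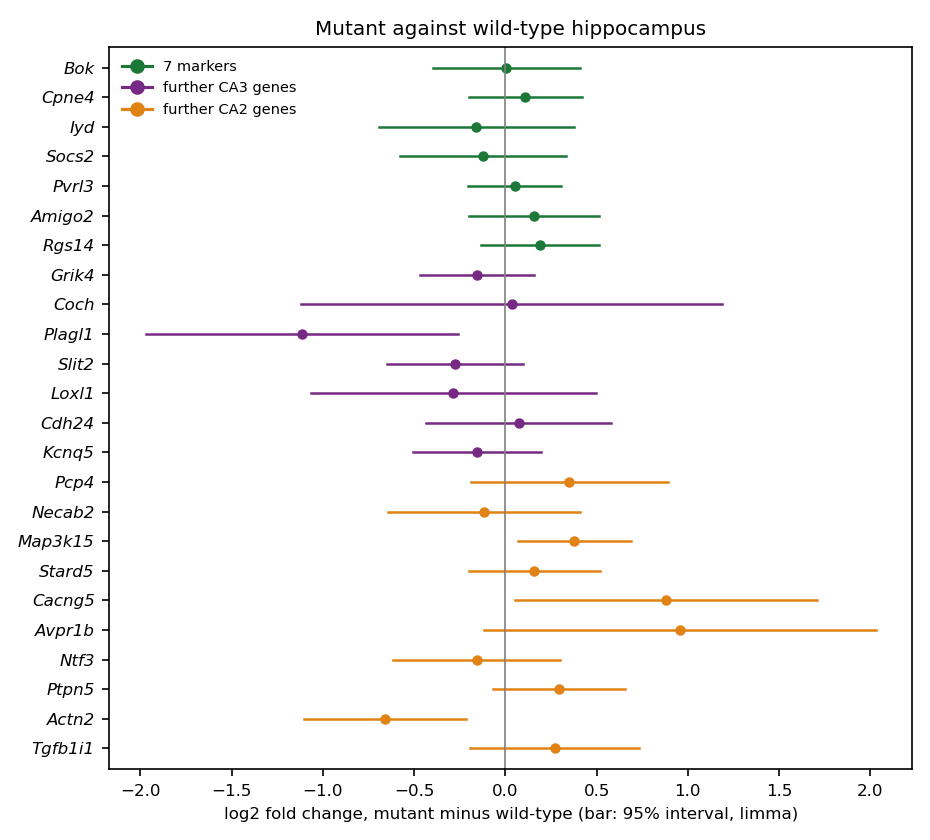
Log2 fold change (mutant minus wild-type, horizontal axis) with its 95% interval from limma for the 7 markers and for further CA3 and CA2 genes, from all 4 libraries. The intervals of all 7 markers include 0, as do those of every further gene but Plagl1, Map3k15, Cacng5 and Actn2, whose adjusted p is 0.989.

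Levels of different genes were compared per kilobase of transcript, with lengths of the matching GENCODE M21 transcripts, which may differ from the records the authors used. Bok ran from 492 to 684 scaled read equivalents per kilobase over the 4 libraries, Rgs14 from 484 to 663, and Cpne4 from 413 to 525. These ranges overlapped, and the order of the 3 most abundant genes changed between libraries. Rgs14 was above Cpne4 in each library, while Bok was above both in wild-type 11 and below both in wild-type 73. Pvrl3 followed, at 239 to 259 per kilobase. Amigo2 at 112 to 147 and Socs2 at 102 to 143 per kilobase overlapped each other, and Iyd was lowest at 45.5 to 57.7. The lower part of this order depends on the record taken for a gene, since the record NM_021496 of Pvrl3 ran from 39.3 to 46.4 per kilobase and NM_001168657 of Socs2 from 231 to 319. With the records used throughout, the same grouping held in mutants alone, where Rgs14 averaged 605, Bok 583, Cpne4 502 and Iyd 49.9 per kilobase, and in wild-types alone, where Bok averaged 588, Rgs14 530, Cpne4 469 and Iyd 55.7.

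No library was high or low for all 7 genes. Wild-type 11 was the lowest for 4 genes (Cpne4, Socs2, Amigo2 and Rgs14) and the highest for 2 (Bok and Iyd), whereas over all genes tested it was lowest for 22.2% and highest for 21.1%. Mutant 39 was the lowest for Iyd and Pvrl3 and the highest for Rgs14, and mutant 38 was the lowest for 0 genes. The wild-types were further apart than the mutants for 4 of 7 genes, as they were for 55.6% of all genes tested. The median size of the log2 difference over the 7 genes was 0.14 between the mutants and 0.30 between the wild-types, beside 0.17 and 0.22 over all genes tested. Averaged over the 7 genes after centring each on its own mean, the log2 level was 0.03 in mutant 38 and 0.01 in mutant 39, against -0.07 in wild-type 11 and 0.04 in wild-type 73. This mean joins genes that went opposite ways, which flattens it. Of 11668 other genes with a mean of at least 100 scaled read equivalents, Mob3a, Nmt2, Ocrl, Trpt1 and Faf1 were nearest to it over the 4 libraries, with a root mean square log2 difference of 0.0064 to 0.0092. That difference was below 0.05 for 836 of these genes, so nearness to this flat profile is common.

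Fitted differences of single genes depended on single libraries of either group. Without wild-type 73, the log2 fold change was 0.28 ± 0.11 for Cpne4 (SE; unadjusted p = 0.0419, adjusted p = 0.999, limma), 0.31 for Amigo2, 0.32 for Rgs14, 0.12 for Socs2 and -0.23 for Bok. Without wild-type 11 these genes had -0.07 (Cpne4), 0.0084 (Amigo2), 0.06 (Rgs14), -0.36 (Socs2) and 0.24 (Bok). Cpne4, Socs2 and Bok thus took opposite signs according to which wild-type was left out, and 0 of 7 genes passed in either case. Leaving out a mutant moved other genes: Rgs14 had 0.33 without mutant 38 and 0.05 without mutant 39, Iyd had -0.29 without mutant 38 and -0.03 without mutant 39, and Pvrl3 had -0.0051 without mutant 38 and 0.11 without mutant 39. Among the 7, Amigo2, Rgs14 and Iyd kept the sign of their fitted value whichever library was left out.

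**Figure D3:**
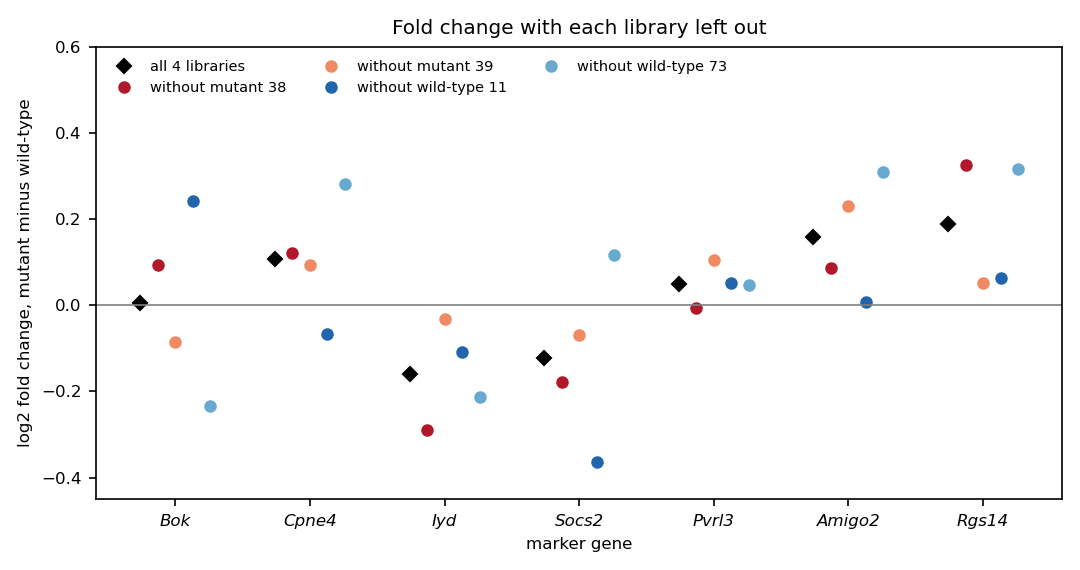
Log2 fold change (mutant minus wild-type, vertical axis) of the 7 markers with all 4 libraries and with each library left out in turn. Bok ranges from -0.23 to 0.24 and Socs2 from -0.36 to 0.12, on both sides of 0, while Rgs14 stays between 0.05 and 0.33.

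The choroid plexus content of the libraries was set beside these values. Within the pair high in choroid plexus markers (mutant 38 against wild-type 11), the log2 difference was -0.32 for Bok, 0.17 for Socs2, 0.27 for Cpne4 and 0.38 for Amigo2. Within the pair low in them (mutant 39 against wild-type 73), it was 0.33 for Bok, -0.42 for Socs2, -0.05 for Cpne4 and -0.06 for Amigo2. Rgs14 had 0.18 in the high pair and 0.20 in the low pair, and when choroid plexus level was added as a covariate its log2 fold change was 0.20 ± 0.11 (SE; adjusted p = 0.730, limma). Each pair holds 1 library of a group, so these differences have no test.

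Further CA3 genes, on a list that does not hold the 7, also did not pass in limma. Of 7 such genes 0 had an adjusted p below 0.05, and 1, Plagl1, had an unadjusted p below 0.05, in the lower direction (1.75% of all genes tested). In 3 of 7 both mutants lay below both wild-types (16.5% of all genes tested) and in 0 of 7 above (16.8%). The median log2 fold change of the list was -0.16. Plagl1, an imprinted zinc finger transcription factor gene, had 347 and 154 scaled read equivalents in mutants 38 and 39, against 591 and 427 in wild-types 11 and 73. All 4 libraries differed widely for it, by 2.26-fold between the mutants alone, and the fit gave a log2 fold change of -1.12 ± 0.36 (SE from 2 libraries a group; adjusted p = 0.989, limma). The p of Plagl1 in the authors' deposited table was 0.00180, and 0.586 after a Benjamini-Hochberg adjustment made here over all 31315 transcript records. The limma p-values were adjusted over 18127 genes, so the 2 kinds of adjusted p are not like for like. Slit2, an axon guidance ligand, had -0.28 ± 0.16, and Grik4, a kainate receptor subunit of CA3 neurons, had -0.16 ± 0.13 (SE, n = 2 per group).

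Further CA2 genes had a median above 0 and did not pass either. Of 10 such genes, 0 had an adjusted p below 0.05. In limma 2 (Map3k15 and Cacng5) had an unadjusted p below 0.05 in the higher direction (2.18% of all genes tested). In the lower direction it was 1, Actn2 (1.75% of all genes tested). Both mutants lay above both wild-types in 6 of 10 (16.8% of all genes tested) and below them in 2 of 10 (16.5%). The median log2 fold change was 0.28. Among the 6, Ptpn5 was close to a tie, with 1038 in mutant 39 against 1020 in wild-type 73. Avpr1b, also among the 6, was low, with 18.6 and 11.7 in mutants 38 and 39, against 6.68 and 7.62 in wild-types 11 and 73. Map3k15, a stress-pathway kinase gene, had 871 and 884 scaled read equivalents in mutants 38 and 39, against 751 and 607 in wild-types 11 and 73 (log2 fold change 0.38 ± 0.13 SE, limma adjusted p = 0.989). Cacng5, which encodes an auxiliary subunit of AMPA-type glutamate receptors, had 483 and 228 in mutants 38 and 39, against 151 and 215 in wild-types 11 and 73. Its mutants differed by 2.12-fold, with mutant 39 close to wild-type 73. Actn2, which encodes a cross-linker of actin, had 123 and 158 in mutants 38 and 39, against 217 and 226 in wild-types 11 and 73 (log2 fold change -0.66 ± 0.19 SE, limma adjusted p = 0.989). Pcp4, a small calmodulin-binding protein widely used to outline CA2, had 1177 and 790 in mutants 38 and 39, against 635 and 899 in wild-types 11 and 73, with overlapping groups.

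Thalamus markers were highest in mutant 38, and for part of the list mutant 39 also lay above both wild-types. The 8 genes of that list summed to 6063 scaled read equivalents in mutant 38 and 3111 in mutant 39, against 2712 in wild-type 11 and 2464 in wild-type 73, with 0 of 8 at 0 in any library. Both mutants lay above both wild-types for 4 of 8 (16.8% of all genes tested), and 4 overlapped. Tnnt1 was among those above by a narrow margin, with 15.4 in mutant 39 against 14.9 in wild-type 11. Prkcd, Tcf7l2, Lef1 and Ntng1 overlapped. Prkcd had 1841 in mutant 38 and 465 in mutant 39, against 499 in wild-type 11 and 405 in wild-type 73. In limma 3 of 8 had an unadjusted p below 0.05 in the higher direction (2.18% of all genes tested), and 0 of 8 passed. Slc17a6, a vesicular glutamate transporter gene, had 954 and 783 in mutants 38 and 39, against 380 and 408 in wild-types 11 and 73 (log2 fold change 1.13 ± 0.14 SE, limma adjusted p = 0.123). The authors' deposited table gives Slc17a6 a p of 9.21e-10, which became 1.88e-06 after the adjustment made here over transcript records. Myelin genes summed to 105420 in mutant 38 and 93319 in mutant 39, against 85632 in wild-type 11 and 61845 in wild-type 73. Both mutants lay above both wild-types for 8 of 8 myelin genes (16.8% of all genes tested). Of these, 0 of 8 passed in limma, and 6 of 8 had an unadjusted p below 0.05 in the higher direction (2.18% of all genes tested). Whether the CA3 and CA2 values are related to the levels of thalamus markers or myelin genes was not tested.

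Other marker lists were set beside the 7 markers within each group. For CA1, where Wfs1 is among the markers, 6 of 7 genes were lower in mutant 38 than in mutant 39, with a median log2 difference (mutant 38 minus mutant 39) of -0.53. That median was 0.11 for the 7 CA3 and CA2 markers, 0.46 for the further CA3 genes and 0.10 for the further CA2 genes. It was 0.05 for 8 dentate granule cell markers and 0.91 for the thalamus list. The further CA3 genes were split, with 4 of 7 higher in mutant 38. Coch, Plagl1, Loxl1 and Slit2 were higher there, Coch by 2.51-fold. Grik4, Cdh24 and Kcnq5 were lower, Grik4 by 1.00-fold. Between wild-types 11 and 73 the medians (wild-type 11 minus wild-type 73) were -0.25 for the 7 markers, 0.01 for the further CA3 genes, -0.21 for the further CA2 genes, -0.15 for CA1, -0.11 for dentate and 0.12 for thalamus. Between mutant and wild-type, the median log2 fold change was -0.04 for the CA1 list and -0.26 for the dentate list. Both mutants lay below both wild-types in 1 of 7 CA1 genes and 2 of 8 dentate genes (16.5% of all genes tested). The other 6 genes of each list overlapped between the groups. The CA1 gene without overlap was Fibcd1, a membrane receptor gene of CA1 neurons. It had 1392 and 1600 scaled read equivalents in mutants 38 and 39, against 2243 and 2299 in wild-types 11 and 73 (log2 fold change -0.60 ± 0.11 SE, limma adjusted p = 0.420). Its p was 8.54e-06 in the authors' deposited table, and 0.00622 after the adjustment made here. Whether any of the 7 markers differed from the CA1 or dentate genes in its response was not tested.

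**Figure D4:**
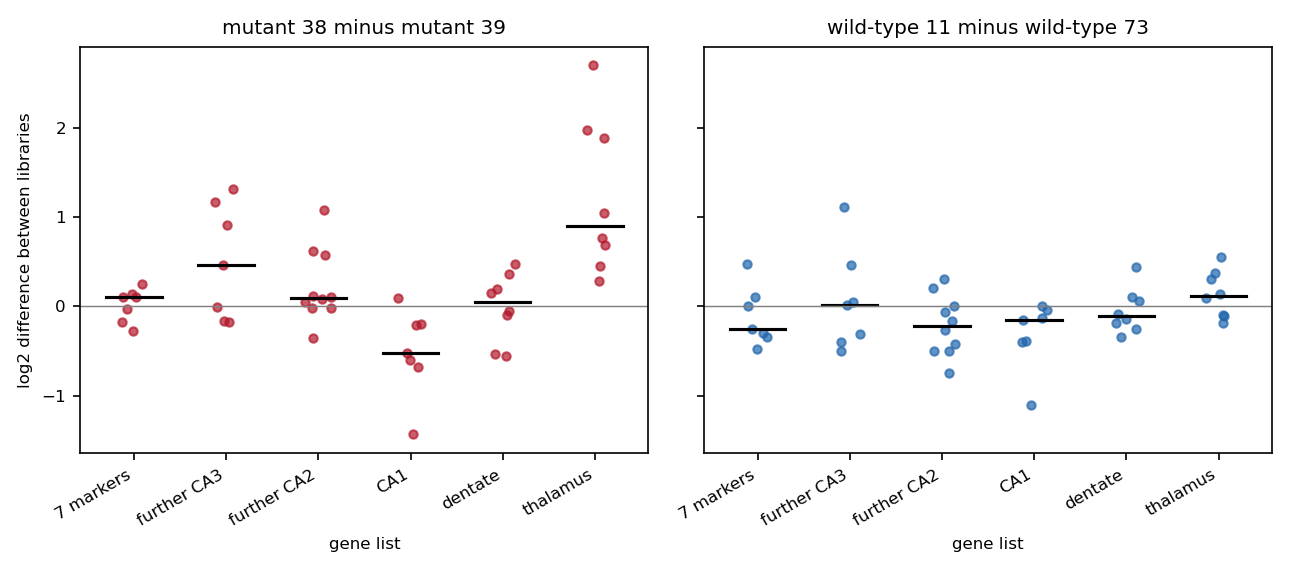
Log2 difference between the libraries of 1 group (vertical axes; mutant 38 minus mutant 39 on the left, wild-type 11 minus wild-type 73 on the right) for each gene of 6 lists, with a bar at the list's median. Between the mutants the medians are 0.11 for the 7 markers, 0.46 for further CA3 genes, -0.53 for CA1 genes and 0.91 for thalamus genes.

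Other copines were followed beside Cpne4, since the family shares its calcium-dependent membrane binding. Of the 8 others, 0 had an adjusted p below 0.05 in limma, and 2 higher (2.18% of all genes tested) and 2 lower (1.75%) had an unadjusted p below 0.05. Cpne2 had 410 and 257 scaled read equivalents in mutants 38 and 39, against 688 and 699 in wild-types 11 and 73, without overlap (log2 fold change -1.09 ± 0.21 SE, limma adjusted p = 0.598). Cpne7 had 1916 and 1573 in mutants 38 and 39, against 2496 and 3386 in wild-types 11 and 73, also without overlap (log2 fold change -0.74 ± 0.17 SE, limma adjusted p = 0.823). The p of Cpne2 was 6.12e-06 and that of Cpne7 1.08e-05 in the authors' deposited table, which became 0.00491 and 0.00719 after the adjustment made here. Cpne9 had 238 and 237 in mutants 38 and 39, against 179 and 168 in wild-types 11 and 73 (log2 fold change 0.45 ± 0.15 SE, limma adjusted p = 0.989). Over the 8 others, both mutants lay above both wild-types in 2 (16.8% of all genes tested) and below them in 4 (16.5%). Cpne4 overlapped between the groups, as did 2 of the others, and a difference between it and the others was not tested.

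**Figure D5:**
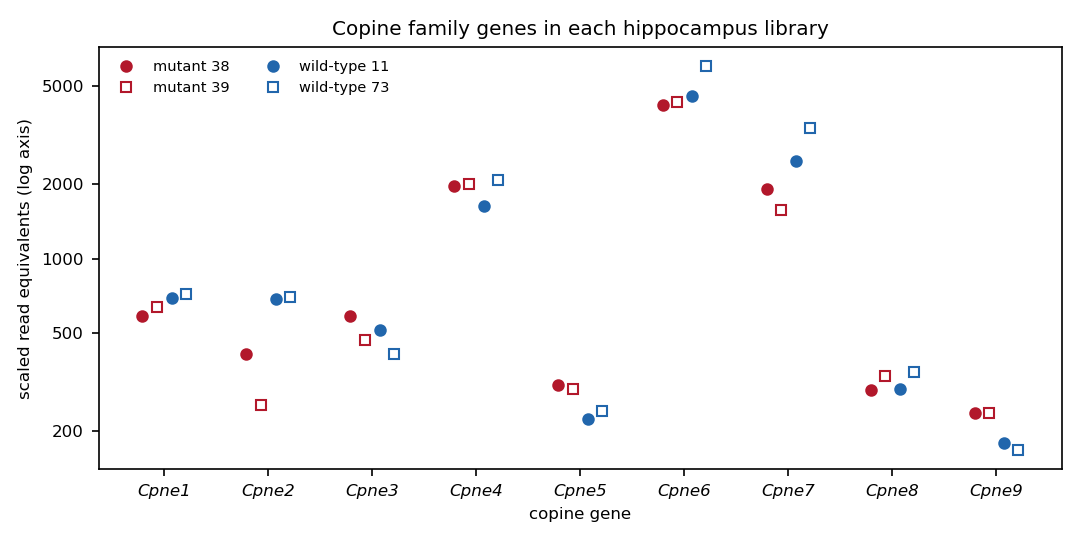
Scaled read equivalents (vertical axis, log scale, not per length, so to be read within a gene) of the 9 copine genes in mutants 38 and 39 and wild-types 11 and 73. The mutants of Cpne2 and Cpne7 lie below the wild-types and those of Cpne9 above, while for Cpne4 both mutants lie between the wild-types.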

How the data were processed

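Ribosome-depleted RNA was made into strand-marked (dUTP) libraries and read from a single end, per the labels' protocols. GSNAP and DESeq2 with the mouse build mm9 are named, per the submitters' processing notes, without roles. How reads were counted, with which strand setting and annotation, is not given in the sources used here. The table deposited by the authors has 31315 transcript records and a signal for each library, in which every value is a whole multiple of 1 step per library, within 0.05 of a step, and low values pile up at 42, 84 and 126 steps. The deposited signal is therefore aligned bases divided by a scaling factor, not a read count and not normalised for length. The deposited p-value column is named after DESeq, per the file headers, which do not say whether it was adjusted. The adjustment of these p-values made here took them as unadjusted and ran over all 31315 records, of which 935 were repeated.

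Values were divided by 42. The record with the highest mean stood for a gene. Genes with at least 1 scaled read equivalent in 2 libraries were tested on log2(value + 1) with limma 3.58.1 in R 4.3.3 (variance trend, two-sided moderated test, Benjamini-Hochberg over all genes tested, threshold 0.05). The log2 fold change understates changes of low genes. The fit was also run on simulated counts, as a check of the code only. These had the same dispersion for every gene and no difference in choroid plexus RNA. The planted changes were larger than the intervals of the 7 genes, so the simulation does not bear on their results. Tables and plots used Python 3.11.15 and matplotlib 3.10.9. The members, the lists and the alternatives were chosen with earlier results of these data known. Genes other than the 7 were named by a rule: the 3 with the smallest p-values in each list, not all of which are reported, plus 5 of like pattern. Pcp4 and the CA1 gene Wfs1 were named after their values were seen. One gene of the CA1 list fixed for this work was left out of every CA1 value, and its result is not reported here. Depth over genes was 18328405 (mutant 38), 17543464 (mutant 39), 18339838 (wild-type 11) and 10023033 (wild-type 73) unscaled read equivalents. With 2 libraries a group, an exact permutation test could not pass and was not used.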

Additional observations from a re-analysis of the deposited data

How the results depend on the processing

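The 7 markers were tested under 15 alternatives each, and 0 of 7 passed under any, with adjusted p of at least 0.515. Of 105 such tests, 98 kept the sign of the fitted value. The exceptions were near 0 or rested on 1 library: Bok had -0.014 with quantile normalisation and -0.011 with equal library totals. Over the settings that left out 1 library, which assume that the lone sample varies like the other group, Bok ran from -0.233 to 0.243, Cpne4 from -0.0655 to 0.282, Socs2 from -0.364 to 0.117 and Pvrl3 from -0.00506 to 0.106. The count of genes changed, 1 of 18127, became 12 with a robust variance prior, 80 with the choroid plexus covariate (1 residual degree of freedom) and 0 with no variance trend, where 938 genes had an unadjusted p below 0.05. It ran from 1 to 37 with 1 library left out. The cause of these moves was not tested. No paired analysis was possible because mutants and wild-types have no replicate number in common. Iyd has the fewest reads, and its interval is the widest of the 7.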

Other observations

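Relatives of the other markers were read from the same fit. Among 7 other members of the SOCS family, which damps cytokine signalling, 0 passed, and the median log2 fold change was 0.06. In limma 1 of 7 had an unadjusted p below 0.05, in the higher direction (2.18% of all genes tested). This was Socs3, with 65.6 and 40.6 scaled read equivalents in mutants 38 and 39, against 30.1 and 22.3 in wild-types 11 and 73 (log2 fold change 0.97 ± 0.36 SE, limma adjusted p = 0.989). Cish had 109 in mutant 38 and 34.6 in mutant 39, against 31.7 in wild-type 11 and 31.6 in wild-type 73. Mutant 38 stood above the other 3 libraries. Socs1 went the other way at low values, with 7.6 and 6.8 in mutants 38 and 39, against 17.5 and 12.1 in wild-types 11 and 73.

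Of 10 other BCL2-family genes, 0 had an unadjusted p below 0.05 in limma (3.94% of all genes tested), and their median log2 fold change was -0.01. Both mutants lay above both wild-types in 3 of the 10 (16.8% of all genes tested) and below them in 0 (16.5%). Bcl2l1, which encodes the survival protein BCL-XL, had 2048 and 1906 scaled read equivalents in mutants 38 and 39, against 1646 and 1779 in wild-types 11 and 73, without overlap (log2 fold change 0.21 ± 0.10 SE, limma adjusted p = 0.989). Among 5 other genes of nectins, the related Pvr and afadin, 0 had an unadjusted p below 0.05 in limma (3.94% of all genes tested). In 3 of these 5 both mutants lay below both wild-types (16.5% of all genes tested), and in 1 above (16.8%). Neither Amigo1 nor Amigo3 had an unadjusted p below 0.05 in limma (3.94% of all genes tested). For Amigo3 both mutants lay below both wild-types, while Amigo1 overlapped. Of the 8 relatives and partners of Rgs14, 0 had an unadjusted p below 0.05 in limma, and their median log2 fold change was 0.0062. Both mutants lay above both wild-types in 2 of these 8 (16.8% of all genes tested) and below them in 3 (16.5%).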
